A study of Mus musculus with 2 samples.

Results

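*Aldoc*, *Aldh1l1*, *Mfge8* and *Ednrb* are genes of radial glia and astrocytes, and are 4 of the 500 genes of a mouse brain panel that was imaged in 2 coronal brain sections of E16.5 embryos. They were taken by name, as the 4 gene columns so called in the count table of each section. The transcripts were imaged in place by MERFISH, in which each RNA molecule is read as a barcode over rounds of hybridisation and then assigned to a segmented cell. The control section came from an *Sst-Cre/tdTomato* embryo and the KO section from an *Sst-Cre/tdTomato/Dnmt1 loxP2* embryo. Both embryos carried the *Sst*-driven Cre and the tdTomato reporter, and *Sst-Cre* drives the deletion of *Dnmt1*, the maintenance DNA methyltransferase, in cells that express *Sst*. *Dnmt1* is not on the panel, so the deletion could not be checked here. There was 1 section of 10 µm per group, so no value below has a replicate and no test was made. Genotype cannot be told apart from any other difference between the 2 sections, such as embryo and depth.

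Radial glia line the ventricles of the embryonic brain, divide there, give rise to neurons and later turn into astrocytes. *Aldoc* encodes aldolase C, a glycolytic enzyme of the brain. *Aldh1l1* encodes 10-formyltetrahydrofolate dehydrogenase, an enzyme of folate metabolism that is used as a pan-astrocyte marker. *Mfge8* encodes a secreted protein that bridges phosphatidylserine on dying cells and integrins on phagocytes, and *Ednrb* encodes the endothelin receptor type B, known for its part in neural crest development. *Sox9* encodes a transcription factor of glial and of cartilage fate.

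The control section held 108533 segmented cells with a median of 20 panel transcripts, and the KO section held 110004 cells with a median of 101. A minimum of 20 panel transcripts per cell left 55231 cells (50.9%) in the control and 101250 (92.0%) in KO tissue. Levels are therefore given as counts per 1000000 panel transcripts (CPM) of the kept cells, and shares of cells after each cell was thinned at random to 25 transcripts. Blank barcodes, which match no gene, made up 0.496% and 0.486% of all decoded transcripts in cells. All intervals are exact 95% intervals and cover counting error only. The heads were frozen whole, and tissue outside the brain is part of both sections.

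*Aldoc* and *Aldh1l1* are shown by the 250 bases before their start because each was the panel gene most like the other in space, while their regional levels differed in direction. Capitals mark CpG, the dinucleotide that DNMT1 methylates. The sequences are from RefSeq on GRCm38.p6, with *Aldoc* at chr11:78322823-78323072 and *Aldh1l1* at chr6:90550543-90550792, both on the plus strand, and all 4 genes had an entry.
Aldoc: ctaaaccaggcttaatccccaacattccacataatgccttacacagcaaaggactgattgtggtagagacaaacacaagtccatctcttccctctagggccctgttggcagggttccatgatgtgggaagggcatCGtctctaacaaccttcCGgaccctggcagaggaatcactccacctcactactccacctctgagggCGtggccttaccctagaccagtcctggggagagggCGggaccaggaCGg
Aldh1l1: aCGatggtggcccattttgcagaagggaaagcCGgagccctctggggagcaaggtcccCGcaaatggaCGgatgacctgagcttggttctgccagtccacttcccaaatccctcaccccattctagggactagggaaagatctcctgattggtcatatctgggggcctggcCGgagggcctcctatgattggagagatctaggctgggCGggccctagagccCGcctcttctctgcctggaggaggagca

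The *Aldoc* window held 5 CpG and the *Aldh1l1* window 7, beside a median of 6 over 32851 windows of the same length. The windows of *Mfge8* and *Ednrb* held 12 and 11. *Aldoc* has a second annotated start whose window held 3 CpG. The letters ACAAAG and ACAATG, short forms of the motif bound by SOX proteins, were searched on both strands and were in 0 of these 5 windows. They were in 16.46% and 10.7% of all windows. No methylation was measured in these sections.

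*Aldoc* was higher in the pallium, the future cortex, and *Aldh1l1* was higher in the subpallium, the future basal ganglia, in both sections. *Mfge8* and *Ednrb* differed less between them. Pallial and subpallial regions were drawn on a grid from 5 pallial genes such as *Tbr1* and *Fezf2* and 13 subpallial genes such as *Gad2* and *Drd2*, none of which is a member. They covered 4.30 and 5.30 mm2 in the control and 3.87 and 5.09 mm2 in the KO section. The ventricular zones, where the members lie, hold few transcripts of these genes, so that their side was set in part by the tissue around them. *Eomes* is among the 5 pallial genes and is also a leading gene of the radial glia-like cluster in which *Aldoc* was highest. The pallial outline and the *Aldoc* level were thus not fully independent.

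*Aldoc* measured 3580.4 CPM in the pallial region and 1002 CPM in the subpallial region of the control section. In the KO section it measured 3839 and 1073 CPM. The pallial level was thus 1.84 log2 units higher in the control (1.69 to 1.99) and 1.84 in the KO section (1.78 to 1.90). With a minimum of 50 transcripts per cell the control ratio was 0.88, which is under 2-fold, while that of the KO section stayed at 1.84. The main log2 ratios stood at the 90.4th and 88.4th percentile of the 249 panel genes compared, which are those at or above the median level of the panel without *Sox9*.

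*Aldh1l1* measured 739 CPM in the pallial region and 1621 CPM in the subpallial region of the control section. In the KO section the levels were 795 and 1741 CPM. The log2 ratio of pallial over subpallial level was -1.13 in the control (-1.34 to -0.93) and -1.13 in the KO section (-1.21 to -1.05). The control ratio was -1.84 with stricter region limits and -1.93 in neuron-rich bins alone, those in which region genes made up at least 4% of transcripts, a setting chosen after seeing the data. The KO ratio in neuron-rich bins was -0.81, which is under 2-fold. The enzyme of folate metabolism thus ran opposite to the glycolytic enzyme on the regional scale.

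*Mfge8* measured 9394 CPM in the pallial and 8501 CPM in the subpallial region of the control section, and 7636 and 6541 CPM in the KO section. The log2 ratios were 0.14 (0.08 to 0.21) and 0.22 (0.19 to 0.25). *Ednrb* measured 1784 and 1916 CPM in the control and 1435 and 1604 CPM in the KO section, and its log2 ratios were -0.10 (-0.25 to 0.05) and -0.16 (-0.23 to -0.09). A minimum of 50 transcripts per cell turned the control *Mfge8* ratio to -0.20, and neuron-rich bins alone turned the KO *Ednrb* ratio to 0.19 and gave a KO *Mfge8* ratio of 0.99. Both genes lay close to the panel median of 0.11 in the control and 0.06 in KO tissue. Among the 500 genes of the panel, *Mfge8* was the 24th highest in the control pallial region, *Aldoc* the 53rd, *Ednrb* the 98th and *Aldh1l1* the 188th.

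A level per region cannot tell fewer cells of a type from less RNA per cell. By the count of 2-fold differences in the main setting, 2 of the 4 members differed between the regions in each section, while 41.4% of the 249 genes did so in the control and 43.4% in KO tissue. Regional differences of this size were therefore common on the panel. The count of members did not hold in every setting. Control *Aldoc* with a minimum of 50 transcripts and KO *Aldh1l1* in neuron-rich bins were under 2-fold. The blank barcodes had a median of 82.1 and 90.2 CPM in the pallial region of the control and KO section and reached 339 CPM at most there, below each pallial level of a member.

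**Figure D1:**
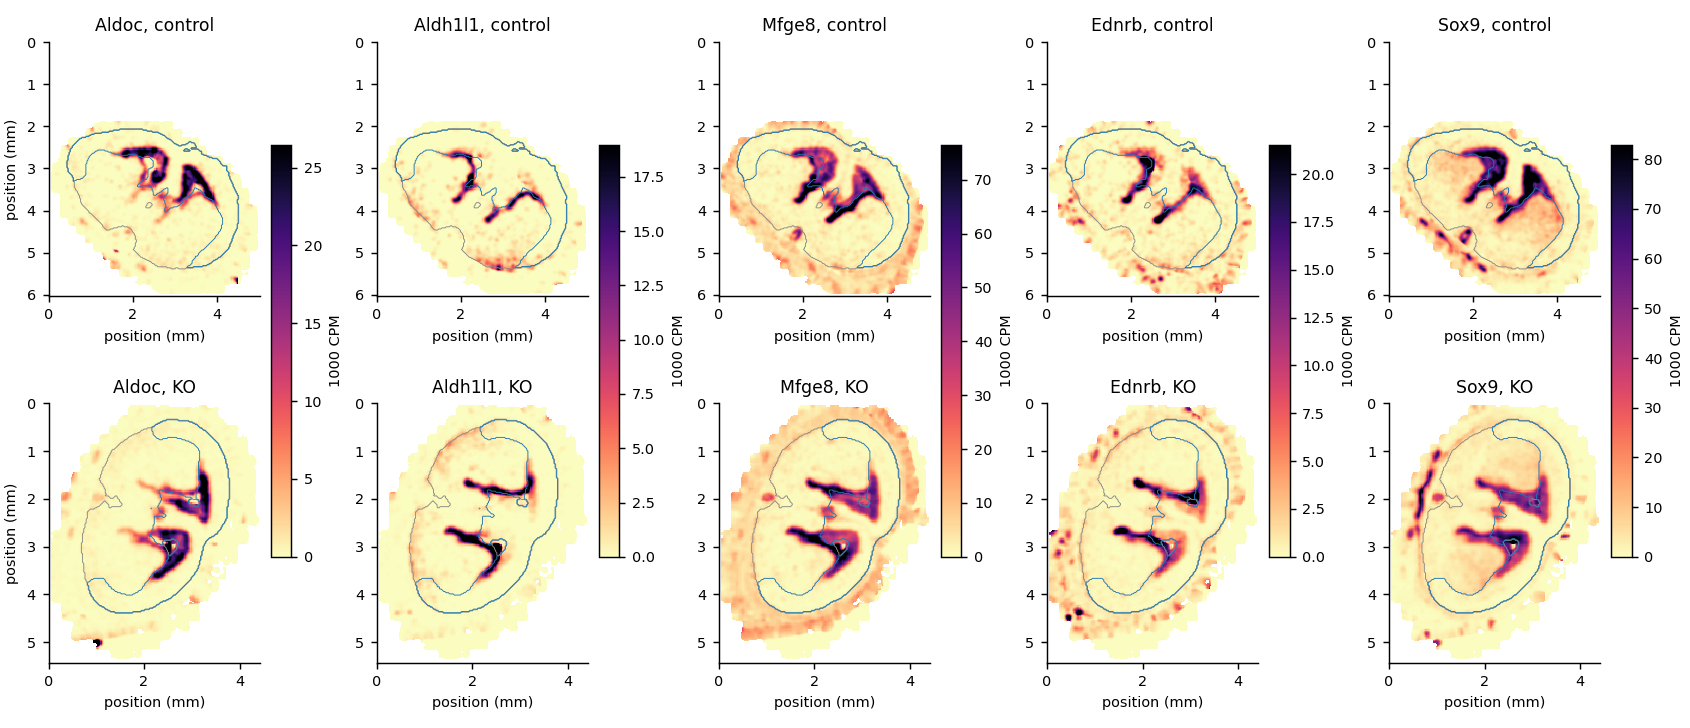
Smoothed level of each member and of *Sox9* (colour, in 1000 CPM, 1 scale per gene) over the control section (top row) and the KO section (bottom row), with position in mm on both axes. Thin lines outline the pallial and subpallial regions. *Aldoc* is densest along the pallial ventricle, *Aldh1l1* along the subpallial one, and *Mfge8* and *Ednrb* also mark tissue outside these regions.

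The 2 flanks of each section, to either side of a line midway through the pallial region, are not replicates, but they show how far 1 section varies within itself. The *Aldoc* log2 ratio was 2.46 and 1.53 in the control flanks and 1.86 and 1.82 in the KO flanks. The *Aldh1l1* log2 ratio was -0.18 (-0.49 to 0.13) in one control flank and -1.70 in the other, and -1.02 and -1.23 in the KO flanks. In the control section the low *Aldh1l1* level of the pallium thus rested on 1 flank, where it measured 523 CPM against 1328 CPM in the other. The *Mfge8* log2 ratio was 0.69 and -0.12 in the control flanks, so its direction differed between them.

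**Figure D2:**
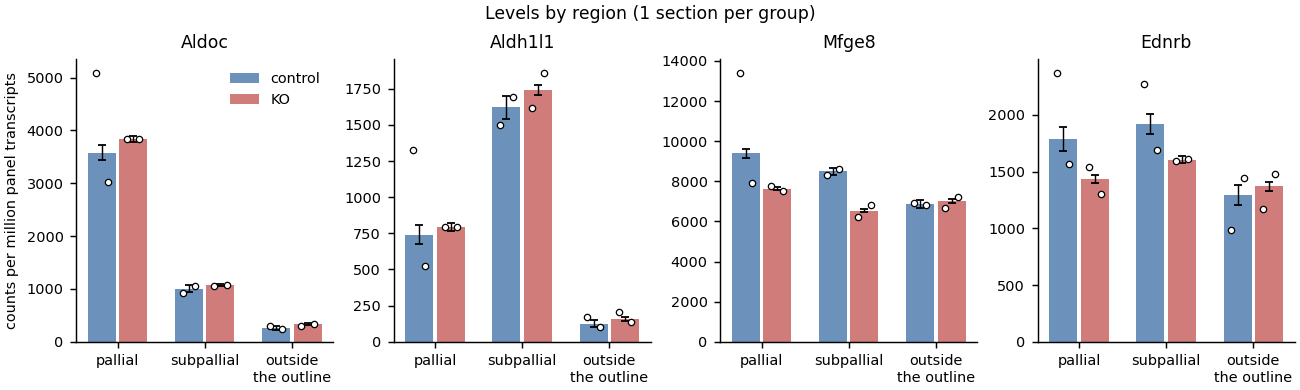
Level of each member in CPM (vertical axis, from 0) in the pallial region, the subpallial region and outside both, for the control (blue) and KO (red) section. Bars are the section's level with its 95% counting interval, and open circles are the 2 flanks of that section. *Aldoc* is higher and *Aldh1l1* lower in the pallial bars of both sections, and the control flanks of the pallial region lie apart.

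Outside the 2 regions, where extracranial tissue lies, *Aldoc* was at 255 and 329.7 CPM and *Aldh1l1* at 124 and 159.5 CPM in the control and KO section. *Mfge8* stayed high there, at 6846 and 7029 CPM, as did *Ednrb*, at 1290.1 and 1368 CPM. The former pair was thus low outside the 2 regions and the latter pair was not. The 2 regions together are called the brain outline below. Brain tissue poor in region genes, or in small parts, can also lie outside it. The *Aldh1l1* levels outside the regions lay below the highest blank barcode of the pallial region, at 339 and 259 CPM in the control and KO section.

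A list of 12 other radial glial and astroglial genes on the panel gives the setting. In each section 4 of the 12 were at least 2-fold higher in the pallium and 1 was at least 2-fold lower. Of the 249 genes compared, 41.4% in the control and 43.4% in KO tissue differed at least 2-fold either way. The median log2 ratio of the list was 0.52 in the control and 0.67 in KO tissue. *Hopx*, a marker of cortical radial glia, had log2 ratios of 3.17 and 3.96. *Lhx2*, a selector of cortical identity, had 2.81 and 2.78. *Olig2*, a transcription factor of ventral progenitors and oligodendrocytes, had -1.05 and -1.53. *Aldoc* lay on the side of *Hopx* and *Lhx2*, and *Aldh1l1* on the side of *Olig2*. These are examples from the list, and the ratios of its other genes are not given here.

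Cells were clustered on the panel without the 4 members and *Sox9*, so that their levels across the 26 clusters were not used to make the clusters. The marker count for radial glia was met by 3 clusters, of which 2 were named radial glia-like. One was led by *Hopx*, *Eomes* and *Creb5* and the other by *Olig2*, *Olig1* and *Bcan*. The latter had 4 radial glia markers and 3 of oligodendrocyte precursors, and its leading genes stand on both lists. Its name thus rested on *Creb5*, which is on the radial glia list alone. In the finer clusters of resolution 1.2, a cluster led by *Olig1*, *Bcan* and *Olig2* had 3 markers of each class and was left unnamed. Together they held 7.93% of the kept control cells and 8.996% of the kept KO cells.

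In the main clusters, radial glia-like cells held over 50% of the transcripts of *Aldoc* and *Aldh1l1* and a smaller part of those of *Ednrb*. For *Aldoc* the share was 67.6% in the control and 77.3% in KO tissue. For *Aldh1l1* it was 56.5% and 75.7%, and for *Mfge8* 47.6% and 56.7%. For *Ednrb* it was 36.3% and 49.9%. With the finer clusters of resolution 1.2 the control share of *Aldh1l1* was 44.9% and that of *Ednrb* 23.6%. The radial glia-like cells of the main clusters held 6.35% and 7.37% of all panel transcripts. In the control, the *Olig2*-led cells held 200 pallial and 750 subpallial *Aldh1l1* transcripts, and the *Hopx*-led cells 141 and 117. In the KO section the *Olig2*-led cells held 608 and 7821, and the *Hopx*-led cells 2001 and 400.

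The highest *Aldoc* level of any cluster was that of the *Hopx*-led cells, at 26091 CPM in the control and 25403 CPM in the KO section. The *Olig2*-led cells followed with 8356 and 10649 CPM. For *Aldh1l1* the order was turned, with 11371 and 17811 CPM in the *Olig2*-led cells and 4126 and 4703 CPM in the *Hopx*-led cells. *Mfge8* was high in both, at 68391 and 62973 CPM in the *Olig2*-led and 53166 and 45221 CPM in the *Hopx*-led cells. *Ednrb* measured 12344 and 14408 CPM in the *Olig2*-led and 6142 and 6120 CPM in the *Hopx*-led cells. None of these pairs of intervals overlapped between the clusters.

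The radial glia-like cells of the 2 regions fell into these clusters in different proportions. Of the pallial radial glia-like cells, the *Olig2*-led cluster held 26.5% in the control and 10.5% in KO tissue. Of the subpallial ones it held 90.4% and 93.0%. *Eomes*, a leading gene of the *Hopx*-led cluster, was also used to draw the pallial region. This split was therefore partly set by how the regions were drawn.

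Within both of these clusters *Aldh1l1* was still lower on the pallial side. Within the *Hopx*-led cells its log2 ratio of pallial over subpallial level was -3.38 in the control (-3.89 to -2.87) and -2.37 in the KO section (-2.58 to -2.16). The subpallial side of that comparison held 157 and 252 cells. Within the *Olig2*-led cells the ratio was -0.85 (-1.16 to -0.54) and -1.31 (-1.46 to -1.16).

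*Aldoc* had smaller ratios within these 2 clusters than over whole regions. Its log2 ratio within the *Hopx*-led cells was 0.73 in the control and 0.29 in KO tissue, and within the *Olig2*-led cells 0.26 (-0.06 to 0.59) and 0.20. *Mfge8* was lower on the pallial side in each, with -1.20 and -0.33 within the *Hopx*-led and -0.57 and -0.84 within the *Olig2*-led cells. *Ednrb* was lower there too, with -1.36 and -0.94 and with -0.72 and -1.03. For these 2 genes the whole-region ratios near 0 thus went with lower pallial levels in both radial glia-like clusters.

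Another cluster, led by *Dlx1*, a gene of GABAergic precursors, also met the marker count for radial glia but was left unnamed for its leading genes, and there *Aldh1l1* and *Mfge8* were higher on the pallial side. Its log2 ratio of pallial over subpallial level was 3.08 and 3.42 for *Aldoc*, 1.25 (0.26 to 2.16) and 1.46 (0.42 to 2.36) for *Aldh1l1*, and 1.48 and 0.54 for *Mfge8*. For *Ednrb* it was 0.52 (-0.52 to 1.45) and 0.20 (-1.02 to 1.23). The pallial side of this cluster held 199 control and 136 KO cells. The direction of *Aldh1l1* and *Mfge8* thus depended on the cluster, while the intervals of *Ednrb* spanned 0 in this one.

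The bins of each region were sorted by the summed share of *Ccnd2* and *Top2a*, genes of dividing cells, and split into 5 equal groups of bins. *Ccnd2* was also among the top 10 genes of the interneuron-like cluster led by *Npas1*, *Reln* and *Ndnf*. The order therefore need not run from the mantle to the germinal zone. In the KO pallium *Aldoc* went from 259 CPM in the group lowest in these genes through 249, 654 and 6653 to 13968 CPM in the highest. In the subpallium the highest group held 4062 CPM of *Aldoc* in the control and 4069 CPM in the KO section. *Aldh1l1* measured 6229 and 7068 CPM in that group, *Mfge8* 34160.4 and 24414 CPM, and *Ednrb* 5094 and 5508 CPM. Each member was thus highest in the subpallial bins richest in *Ccnd2* and *Top2a*.

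The control pallium differed from this order. *Aldoc* there was at 13158 CPM in group 4 of 5 and at 2645 CPM in group 5. *Mfge8* likewise measured 25871 and 7321 CPM, and *Sox9* 37428 and 10858 CPM. *Aldh1l1* measured 1609, 1563 and 608 CPM in groups 3, 4 and 5, and *Ednrb* was highest in group 3, at 5222 CPM against 2956 and 969 CPM. All 4 members and *Sox9* were lower in the bins richest in *Ccnd2* and *Top2a* than in group 4.

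*Sox9* cells carried the members more often than other cells did. After thinning to 25 transcripts, 6810 of 43884 control cells (15.5%) and 13227 of 99572 KO cells (13.3%) held *Sox9*. Thinning left out 11347 and 1678 cells with fewer transcripts. *Aldoc* was found in 14.0% of the *Sox9* cells and 1.32% of the others in the control, and in 17.0% and 1.88% in the KO section. The log2 ratio of these shares was 3.40 (3.19 to 3.62) and 3.18 (3.05 to 3.30).

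*Aldh1l1* was found in 7.28% of *Sox9* cells and 0.952% of others in the control, and in 10.9% and 1.003% in the KO section. *Mfge8* was found in 36.8% against 7.998% and in 39.8% against 7.70%. *Ednrb* was found in 12.6% against 1.92% and in 12.5% against 1.85%. The log2 ratios were 2.94 and 3.44 for *Aldh1l1*, 2.20 and 2.37 for *Mfge8*, and 2.72 and 2.76 for *Ednrb*. No member's intervals overlapped between the 2 kinds of cells. Thinned to 50 transcripts, the control ratios were 2.58 for *Aldoc*, 2.24 for *Aldh1l1* and 1.33 for *Mfge8*, and pallial cells alone gave 3.24 for *Mfge8*. The ranks below were taken in the main setting only.

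Without thinning the shares in *Sox9* cells and others were 15.2% and 1.72% for *Aldoc* in the control, and 24.5% and 3.55% in the KO section. They were 8.70% and 1.19%, and 15.5% and 1.71%, for *Aldh1l1*. For *Mfge8* they were 41.1% and 10.6%, and 47.6% and 16.1%. For *Ednrb* they were 14.9% and 2.47%, and 22.4% and 4.26%. The deeper KO section had the higher shares in all of these.

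By this ratio *Aldoc* had rank 1 and *Aldh1l1* rank 3 among the 249 genes in the control, and ranks 2 and 1 in the KO section. *Ednrb* had ranks 4 and 5, and *Mfge8* had rank 6 in both. All 4 members passed 2-fold, beside 8.84% of the 249 genes in the control and 10.8% in KO tissue, whose median log2 ratio was -0.45 and -0.49. Of the glial list, which has 11 genes when *Sox9* is left out, 8 passed 2-fold in each section. Among them *Hopx* had 3.04 in the control and *Bcan*, a glial matrix proteoglycan, had 2.66 and 2.80.

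**Figure D3:**
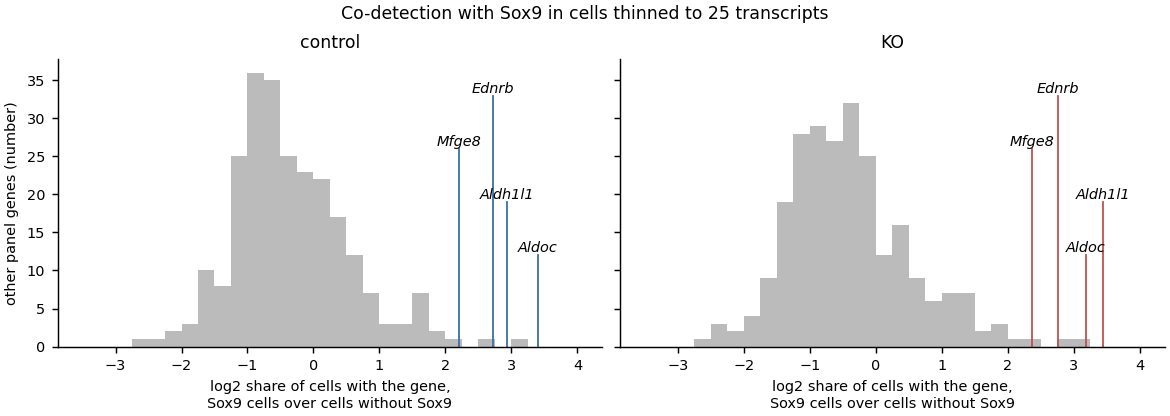
Number of panel genes (vertical axis, grey) by the log2 ratio of the share of cells with the gene in *Sox9* cells over cells without *Sox9* (horizontal axis), in the control (left) and KO (right) section after thinning to 25 transcripts. Lines mark the 4 members, which lie at 2.20 to 3.44, at the right end of both distributions.

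Read the other way, 66.0% of *Aldoc* cells held *Sox9* in the control and 58.1% in KO tissue. For *Aldh1l1* it was 58.4% and 62.5%, for *Mfge8* 45.8% and 44.2%, and for *Ednrb* 54.7% and 50.8%. A cell thinned to 25 transcripts can miss *Sox9* by depth alone, so these shares are not shares of cells that lack it.

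Within the pallium *Aldoc* was held by 28.7% of *Sox9* cells in the control and 34.0% in KO tissue, and within the subpallium by 7.22% and 10.2%. *Aldh1l1* was held by 6.68% and 6.70% of pallial and by 11.04% and 16.8% of subpallial *Sox9* cells. *Mfge8* was held by 53.1% and 52.8% of pallial and by 32.5% and 36.6% of subpallial ones. The regional contrast between *Aldoc* and *Aldh1l1* was thus present within *Sox9* cells as well.

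The members were also found together. *Mfge8* was in 55.8% of control and 58.6% of KO *Aldoc* cells, and in 10.99% and 10.1% of cells without *Aldoc*. It was in 58.9% and 67.8% of *Aldh1l1* cells. *Aldh1l1* was in 12.6% and 16.8% of *Aldoc* cells, and in 1.57% and 1.73% of cells without it. All 4 members were in 47 control and 144 KO cells, while 83.8% and 84.5% of the thinned cells held none of them.

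*Sox9* was high in clusters where some members were low. The cluster led by *Col9a2* and *Hapln1*, genes of cartilage matrix, had 82021 and 105559 CPM of *Sox9* in the control and KO section. It had 300 and 173 CPM of *Aldoc* and 450 and 130 CPM of *Aldh1l1*, with intervals that reached below 100 CPM. Its *Mfge8* level was 9747 and 8090 CPM, and its *Ednrb* level 4498 and 649 CPM. The control levels rested on 2 *Aldoc* and 3 *Aldh1l1* transcripts. Despite high *Sox9*, *Aldoc* and *Aldh1l1* were thus below their radial glia-like levels in these cells.

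**Figure D4:**
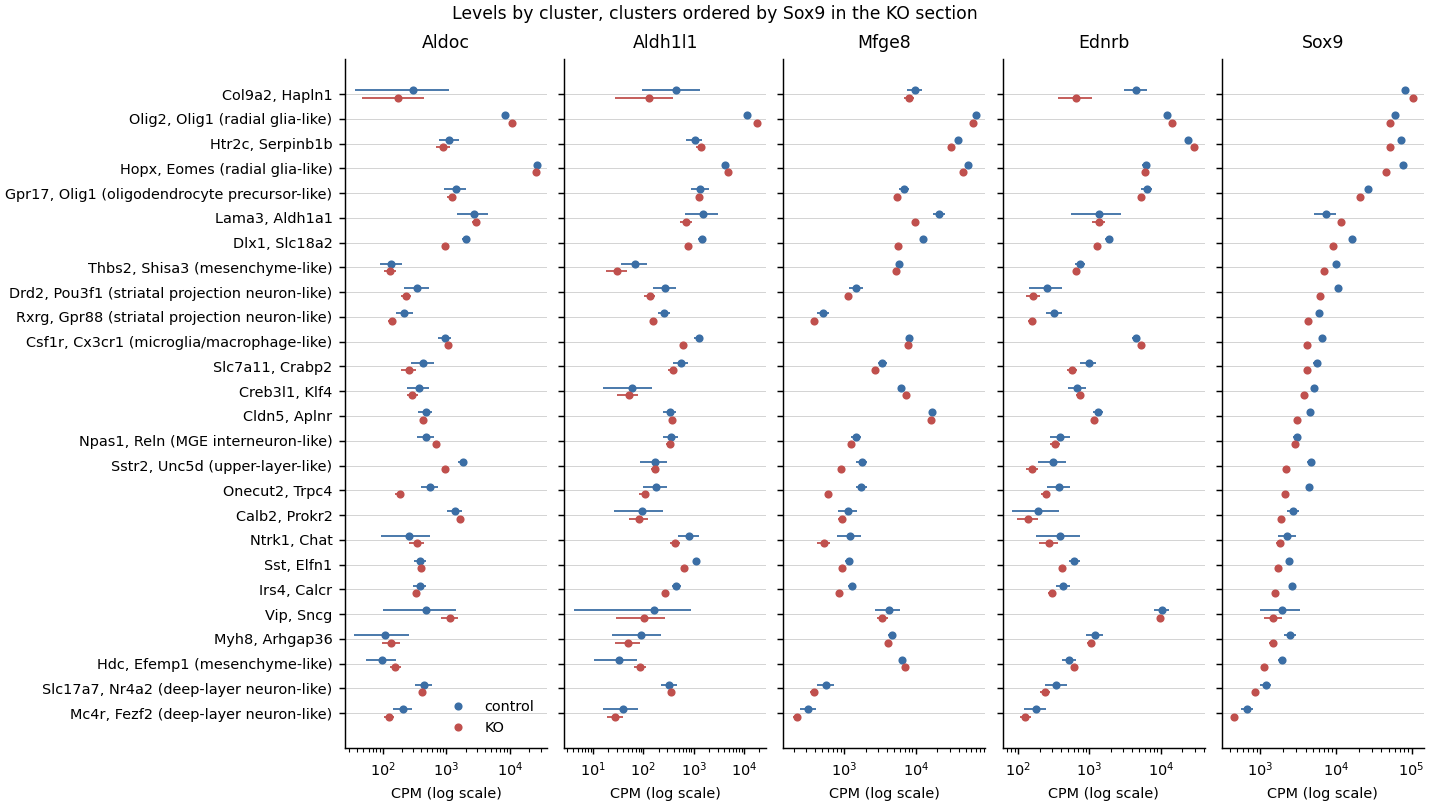
Level of each member and of *Sox9* in CPM (horizontal axis, log scale) in the 26 clusters (vertical axis, named by their 2 leading genes and ordered by *Sox9* in the KO section), with 95% counting intervals as lines, for the control (blue) and KO (red) section. *Aldoc* and *Aldh1l1* peak in the radial glia-like clusters, and *Ednrb* in the cluster led by *Htr2c*.

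*Ednrb* was highest outside the radial glia-like cells. The cluster led by *Htr2c*, *Serpinb1b* and *Lmx1a* held 23869.7 CPM of *Ednrb* in the control (22144 to 25695) and 29490.4 CPM in the KO section (28251 to 30770). *Htr2c* and *Lmx1a* are known from the choroid plexus, but the marker lists held no class for it and the cluster was left unnamed. It held 18.0% of *Ednrb* transcripts in 1.199% of control cells and 10.6% in 0.445% of KO cells. *Mfge8* was at 39008 and 31111 CPM and *Sox9* at 72688 and 51362 CPM there, while *Aldoc* was at 1113 and 900.4 CPM.

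A small cluster led by *Vip*, *Sncg* and *Gpr17* held 10324 and 9899 CPM of *Ednrb*, and oligodendrocyte precursor-like cells, led by *Gpr17* and *Olig1*, held 6404 and 5335 CPM. The former comprised 118 and 207 cells and the latter 435 and 769. *Aldoc* and *Aldh1l1* were each at 1207 to 1394 CPM in the precursor-like cells of both sections. In the precursor-like cells *Ednrb* thus had the highest level of a member after *Mfge8*, which was at 6920 and 5550 CPM. In the *Vip*-led cluster *Mfge8* was at 4194 and 3439 CPM, below *Ednrb*. Over the whole section *Mfge8* was at 8255 and 6992 CPM and *Ednrb* at 1692 and 1496 CPM.

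Microglia- or macrophage-like cells, led by *Csf1r* and *Cx3cr1*, held 4490 and 5281 CPM of *Ednrb* and 8017 and 7785 CPM of *Mfge8*. After their levels had been seen, these cells were split by *Mrc1*, a receptor of border and tissue macrophages. Those with *Mrc1* held 5865 and 6546 CPM of *Ednrb* and those without it 1689.5 and 1676 CPM. *Mfge8* ran the other way, at 5723 and 6385 CPM with *Mrc1* and 12692 and 11772 CPM without. *Aldoc* was at 364 and 301 CPM with *Mrc1* and at 2102 and 3278 CPM without. Location gave contrasts of the same direction. Inside the brain outline these cells held 3141 and 3399 CPM of *Ednrb*, and outside it 5176 and 6262 CPM. *Mfge8* was at 12482 and 10375 CPM inside and 5749 and 6434 CPM outside, and *Aldoc* at 2416 and 2759 against 184 and 196 CPM. Whether *Mrc1* or location goes with these levels was not tested.

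The cluster led by *Cldn5*, *Aplnr* and *Flt1* carried equal numbers of endothelial and mural markers and was left unnamed as a vascular mixture. It held 16833 and 16356 CPM of *Mfge8*, which was 11.9% and 12.7% of all *Mfge8* transcripts. After the level had been seen, cells with at least 2 mural and 0 endothelial transcripts were set beside those with at least 2 endothelial and 0 mural ones. The former held 22260.4 and 20921 CPM of *Mfge8* and the latter 11845 and 10178 CPM. The set with mural transcripts, of 298 and 223 cells, thus had a higher *Mfge8* level than the endothelial set, of 852 and 959 cells. Most cells of the cluster, 1699 and 3666, were in neither set and held 18235 and 17172 CPM.

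The vascular *Mfge8* level was somewhat higher inside than outside the brain outline, at 18113 and 15738 CPM in the control and 16907 and 15810 CPM in the KO section. Mesenchyme-like cells, in 2 clusters led by *Thbs2* and by *Hdc*, held 5848 and 6496 CPM of *Mfge8* in the control and 5331 and 7115 CPM in the KO section. Together they made up 11.04% and 8.96% of *Mfge8* transcripts. A cluster led by *Lama3* held 21503 and 9743 CPM, over 129 and 592 cells.

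The cluster led by *Sst*, *Elfn1* and *Sertm1* had rank 7 of the 26 clusters for *Aldh1l1* in both sections, at 1096 CPM in the control (959 to 1247) and 638 CPM in the KO section (593 to 686). It held 10.7% and 5.15% of all *Aldh1l1* transcripts, beside 9.04% and 8.67% of all panel transcripts. The *Aldh1l1* level of the whole section was 928 and 1075 CPM, so the cluster was near it in the control and below it in the KO section. *Sst* is the gene whose promoter drives Cre in both embryos. In the deep-layer neuron-like cells led by *Mc4r*, *Fezf2* and *Ntsr1*, *Aldh1l1* was at 38.5 and 27.2 CPM, *Aldoc* at 209 and 127 CPM, *Mfge8* at 319 and 219 CPM and *Ednrb* at 176 and 127 CPM. All of these lay below the highest blank barcode of the pallial region, at 339 CPM in the control and 259 CPM in the KO section.

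The shares of these deep-layer neuron-like cells, which were among the 4 lowest clusters for each member, give the low end of the section. After thinning, *Aldoc* was in 0.492% and 0.252% of them, *Aldh1l1* in 0.129% and 0.0404%, *Mfge8* in 0.673% and 0.576% and *Ednrb* in 0.518% and 0.293%. Their median depth was 31 and 96 transcripts, beside 41 and 143 in the *Sst*-led cells. In the *Sst*-led cells *Aldh1l1* was in 1.93% (1.53 to 2.40) and 1.35% (1.10 to 1.65) of cells.

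The cells like upper-layer or immature projection neurons, led by *Sstr2* and *Unc5d*, held 1802 and 944 CPM of *Aldoc*, and an unnamed cluster led by *Calb2* and *Prokr2* held 1366 and 1619 CPM. Their *Aldh1l1* levels were 168 and 174 CPM and 94.2 and 82.4 CPM. These *Aldh1l1* levels lay within the range of the blank barcodes of the pallial region.

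Cell borders in dense tissue can assign a molecule to a neighbour, so the shares were also given by distance to the nearest radial glia-like cell. Neuron-like cells within 15 µm held *Aldoc* in 10.3% of cells in the control and 9.01% in KO tissue, and those beyond 120 µm in 0.373% and 0.272%. *Mfge8* went from 9.78% and 9.06% to 1.03% and 0.633%. *Aldh1l1* went from 2.72% and 2.91% to 0.149% and 0.114%, and *Ednrb* from 2.45% and 1.77% to 0.523% and 0.336%. The share of neuron-like cells with each of the 4 members was thus highest beside radial glia-like cells. How much of it came from such assignment was not tested.

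Other cells held some members at a distance too. Microglia- or macrophage-like cells held *Aldoc* in 19.8% and 20.1% within 15 µm and in 0.157% and 0.497% beyond 120 µm. *Aldh1l1* was in 20.9% and 10.9% of them near and in 0.157% and 0.414% far. *Ednrb* was in 13.2% and 9.17% of them near and in 11.1% and 12.8% far. *Mfge8* was in 48.4% and 43.2% near and in 12.2% and 12.01% far. However, 81.0% of the control and 80.1% of the KO cells beyond 120 µm lay outside the brain outline, so distance and tissue are mixed here. Inside the outline, a subset chosen after these shares had been seen, *Ednrb* was in 13.9% (7.16 to 23.5) and 8.59% near and in 4.96% (1.84 to 10.5) and 11.7% far. *Aldoc* was in 20.3% and 23.2% of the near cells there, and in 0 of 121 (upper limit 3.003%) and 1 of 240 far cells. Inside the outline *Aldoc* was thus lower in the far cells of both sections, while the near and far intervals of *Ednrb* overlapped.

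Cells of the *Cldn5*-led cluster held *Mfge8* in 35.7% and 46.1% within 15 µm and in 28.7% and 29.4% beyond 120 µm. The *Sst*-led cells held *Aldh1l1* in 3.30% and 1.94% near and in 2.75% and 0.910% far, with 5 to 9 such cells in each of these groups. The near and far intervals of *Aldh1l1* in the *Sst*-led cells overlapped.

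**Figure D5:**
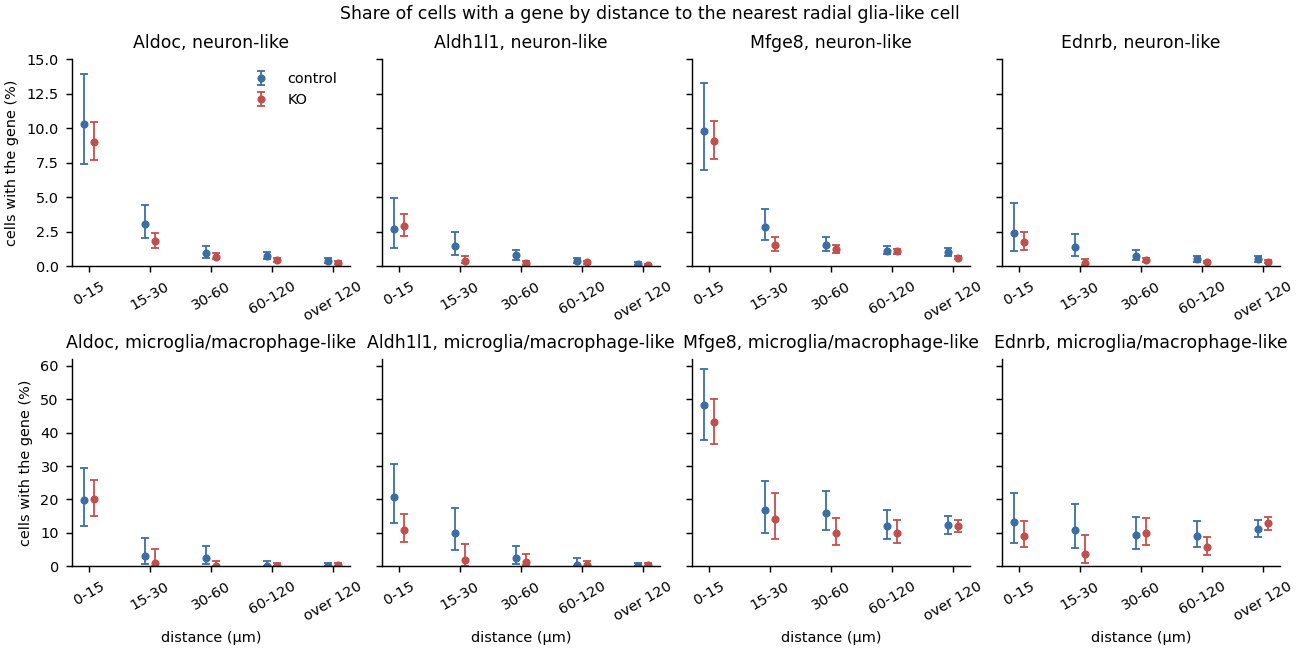
Share of thinned cells with each member in percent (vertical axis, from 0) by distance to the nearest radial glia-like cell in µm (horizontal axis), for neuron-like (top) and microglia- or macrophage-like cells (bottom), with 95% counting intervals, in the control (blue) and KO (red) section. In the top row each member is highest within 15 µm, and in the bottom row *Ednrb* lies between 9.05% and 13.2% in the control and between 3.74% and 12.8% in the KO section, in no order of distance.

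Across space, the panel genes most like each member were found by Spearman's rho of CPM over squares of 100 µm with at least 200 transcripts, of which the control held 1295 and the KO section 1393. These are descriptions over squares of 1 section, which share depth and tissue. *Aldoc* was most like *Aldh1l1* (rho 0.43 in the control and 0.52 in KO tissue), *Sox9* (0.41 and 0.44) and *Chd7* (0.41 and 0.44). *Aldh1l1* was most like *Aldoc*, *Cdh20* (0.36 and 0.47) and *Ednrb* (0.38 and 0.36).

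*Mfge8* was most like *Ccdc80* (0.62 and 0.71), *Top2a* (0.60 and 0.72) and *Pmp22* (0.58 and 0.71). *Ednrb* was most like *Mfge8* (0.51 and 0.63), *Iqgap2* (0.42 and 0.60) and *Tcf7l2* (0.37 and 0.48). *Sox9* was thus among the nearest genes of *Aldoc*, and only the 25th of *Mfge8*.

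Between the KO and the control section the members differed little in level. In the pallial region the log2 ratio of KO over control level was 0.10 for *Aldoc* (0.02 to 0.18), 0.11 for *Aldh1l1* (-0.07 to 0.29), -0.30 for *Mfge8* (-0.35 to -0.25) and -0.31 for *Ednrb* (-0.43 to -0.19). In the subpallial region it was 0.10, 0.10, -0.38 and -0.26 in the same order. No member reached a 2-fold difference, beside 10% of the 249 genes in the pallial and 8.84% in the subpallial region. The middle 90% of the pallial ratios of these genes ran from -0.99 to 0.99, around a median of -0.05.

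The flanks of the sections set a scale for these values. Over the pairs of 1 control and 1 KO flank, the pallial log2 ratio of *Aldoc* ran from -0.41 to 0.35 and that of *Aldh1l1* from -0.74 to 0.61. For *Mfge8* it ran from -0.84 to -0.03 and for *Ednrb* from -0.86 to -0.03. The direction of *Aldoc* and *Aldh1l1* thus changed with the flank, while *Mfge8* and *Ednrb* were lower in the KO section in each pair. In the pair at -0.03, the counting intervals of the flanks compared overlapped for both genes. The *Aldoc* ratio was -0.14 with no minimum of transcripts per cell and 1.30 with a minimum of 50, and the *Mfge8* ratio was 0.37 with the latter.

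*Sox9* was lower in the KO section by more than any member, with -0.71 in the pallial and -0.46 in the subpallial region. Within the *Hopx*-led cells the log2 ratio of KO over control level was -0.04 for *Aldoc* and 0.19 (-0.04 to 0.43) for *Aldh1l1*. It was -0.23 for *Mfge8* and -0.01 for *Ednrb* in the same cells. Within the *Olig2*-led cells it was 0.35 for *Aldoc* (0.20 to 0.50) and 0.65 for *Aldh1l1* (0.53 to 0.77), beside a panel median of -0.06. In the same *Olig2*-led cells it was -0.12 for *Mfge8* (-0.17 to -0.07) and 0.22 for *Ednrb* (0.10 to 0.35). This cluster held 669 pallial and 1482 subpallial cells in the control, and 523 and 3335 in the KO section. On its pallial side *Aldh1l1* measured 8030 CPM in the control (6956 to 9223) and 8804 CPM in the KO section (8118 to 9532). On its subpallial side *Aldh1l1* measured 14470 and 21827 CPM.

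*Sst* drives Cre, but how many of the *Sst*-led cells carried the deletion could not be checked. Within these cells the ratio was -0.78 for *Aldh1l1* (-1.07 to -0.48), -0.58 for *Ednrb*, -0.31 for *Mfge8* and 0.07 for *Aldoc*, beside a panel median of 0.06. Over whole clusters *Aldh1l1* thus differed in opposite directions between the *Olig2*-led and the *Sst*-led cells. The intervals of the pallial *Olig2*-led cells overlapped between the sections. In microglia- or macrophage-like cells the *Aldh1l1* ratio was -1.003 (-1.51 to -0.49), beside a panel median of 0.22. It lay below the middle 90% of the panel there, which ran from -0.85 to 1.31. It rested on 92 control and 193 KO transcripts, of which 85 and 152 lay inside the brain outline. After thinning, such cells held *Aldh1l1* in 20.9% (control) and 10.9% (KO) within 15 µm of radial glia-like cells. Beyond 120 µm they held it in 0.157% and 0.414%. How much of this ratio came from molecules assigned from neighbouring cells was not tested. The *Dlx1*-led cluster had -1.12 for *Aldoc*, -1.17 for *Mfge8*, -0.88 for *Aldh1l1* and -0.59 for *Ednrb*, beside a panel median of -0.20 and within the middle 90% of the panel there, which ran from -1.48 to 0.91. The middle 90% of the panel ran from -0.91 to 0.94 in the *Sst*-led cells and from -1.09 to 1.27 in the *Olig2*-led cells, so that the members lay within the spread of the panel in both.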

How the data were processed

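MERFISH was run by the authors on the MERSCOPE instrument with a commercial 500-gene panel and 50 blank barcodes, and decoding and cell segmentation were done on the instrument. The deposited values used were raw counts of transcripts per cell, positions of cells and positions of decoded molecules, and the versions of the instrument's software and its segmentation settings are not given in the sources used here. Nothing was pooled, and no deposited cell type labels were used here.

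Counts were summed over cells with at least 20 panel transcripts and divided by the panel total (CPM, no pseudocount). Poisson and Clopper-Pearson intervals were exact, and the ends of ratio intervals pair opposite ends of these. Cells were thinned with a fixed seed. Regions were drawn on a 25 µm grid smoothed with an SD of 50 µm, where region genes made up at least 4% of transcripts, and closed over 250 µm. These settings were chosen after seeing the sections.

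Clusters were made with Seurat 5.3.0 in R 4.3.3 by reciprocal PCA integration with 30 components at resolution 0.8. A cluster was named "like" a class with at least 3 of its markers among the top 10 genes, and more than of any other class. The *Dlx1*-led cluster met this for radial glia but was left unnamed for its leading genes, which was decided after seeing the data. Its inclusion is given as an alternative. No doublet caller was run. Python 3.11.15 with numpy 2.4.6, scipy 1.17.1 and pandas 2.3.3 was used for the rest, and the scripts were tested on simulated data.

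The rule for named genes was the 4 members, *Sox9*, the glial list, the leading genes of clusters and the 3 panel genes most like each member. The members and lists were chosen with earlier results of these data known. Alternatives changed the minimum of transcripts, the scaling, the region limits, the thinning, the resolution and the use of molecules outside cells.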

Additional observations from a re-analysis of the deposited data

How the results depend on the processing

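No paired analysis was possible because each group holds 1 section, and no section was left out. The depth of the control section limits its values, since 50.9% of its cells passed the minimum of 20 transcripts. Settings are compared by whether a value left its counting interval, and the cause was not tested.

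For the log2 ratio of pallial over subpallial level in the control section, dropping the minimum gave 2.004 for *Aldoc*, and a minimum of 50 gave 0.88 for *Aldoc* and turned *Mfge8* to -0.20. Regions limited to bins over 70% pallial or under 30% gave 2.28 for *Aldoc*, -1.84 for *Aldh1l1*, 0.22 for *Mfge8* and -0.32 for *Ednrb*. Neuron-rich bins alone, an alternative chosen after seeing the data, gave -1.93 for *Aldh1l1* and -0.42 for *Ednrb*. In the KO section, all decoded molecules gave 1.77, -1.23, 0.15 and -0.24 for *Aldoc*, *Aldh1l1*, *Mfge8* and *Ednrb*. The stricter region limits gave 2.06 for *Aldoc*, -1.51 for *Aldh1l1* and -0.28 for *Ednrb*, and neuron-rich bins gave 2.47, -0.81 and 0.99 for *Aldoc*, *Aldh1l1* and *Mfge8* and turned *Ednrb* to 0.19.

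For the log2 ratio of shares in *Sox9* cells over other cells, thinning to 50 transcripts gave 2.58, 2.24, 1.33 and 2.34 in the control for *Aldoc*, *Aldh1l1*, *Mfge8* and *Ednrb*, and 3.37, 3.65 and 2.09 in the KO section for the first 3. Subpallial cells alone gave 2.58, 2.54 and 3.15 in the control and 2.91, 2.72 and 3.29 in the KO section for *Aldoc*, *Mfge8* and *Ednrb*. Pallial cells alone gave 3.65, 3.24 and 3.38 in the control and 3.07, 3.10 and 2.998 in the KO section for *Aldh1l1*, *Mfge8* and *Ednrb*. Each of these ratios stayed above 2-fold.

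The share of transcripts in radial glia-like cells moved with the clusters. At resolution 1.2 it was 56.1%, 44.9%, 33.8% and 23.6% in the control and 69.6%, 67.3%, 48.0% and 39.6% in the KO section for *Aldoc*, *Aldh1l1*, *Mfge8* and *Ednrb*. With the *Dlx1*-led cluster counted, also chosen after seeing the data, it was 74.1%, 63.9%, 55.0% and 41.7% in the control and 80.1%, 79.4%, 61.0% and 54.3% in the KO section. Without the 1% largest cells all 8 values stayed in their intervals.

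For the pallial log2 ratio of KO over control level, dropping the minimum turned *Aldoc* to -0.14 and gave -0.41 for *Mfge8*. A minimum of 50 gave 1.30 for *Aldoc* and -0.16 for *Ednrb* and turned *Mfge8* to 0.37. All decoded molecules turned *Aldoc* to -0.11 and gave -0.13 for *Aldh1l1* and -0.35 for *Mfge8*, and scaling to the median panel ratio gave -0.24 for *Mfge8*.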

Other observations

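The instrument imaged 7 planes through each section. For *Aldoc* the last plane held 5.75% as many molecules as the first in the control section, beside 23.6% over all panel genes. In the KO section these were 20.9% and 43.2%. For *Mfge8* they were 22.8% and 44.8%, for *Aldh1l1* 16.8% and 41.1%, and for *Ednrb* 16.4% and 34.1%. Of all decoded *Aldoc* molecules, 79.6% lay in segmented cells in the control and 77.2% in KO tissue, beside 81.4% and 81.6% over the panel.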
